A study of Drosophila melanogaster with 24 samples.

Results

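The period gene (per) of Drosophila melanogaster is described here through the ChIP-seq peaks of CLK and CYC around it. The members are all peaks whose midpoint lies between 2570000 and 2590000 on chromosome X in the dm3 build, a window of 20 kb. They number 55 of the 58157 peaks in the 12 deposited lists, 48 from pull-downs of a tagged factor and 7 from mock pull-downs. The V5 antibody was used on chromatin from heads or bodies of flies with V5-tagged CLK (strain Clk), of flies with V5-tagged CYC (strain cyc), or of untagged w- flies for the mock. All flies were 5 to 10 days old, reared at 25 °C in 12 h of light and 12 h of dark, and taken at ZT13, which is 1 h after the lights went off. No other treatment is given, and the labels do not say how the tag was introduced. Each of the 6 groups has 2 replicates with a list. Whole heads and whole bodies of many flies were pooled, so weak binding in many cells and strong binding in few cells cannot be told apart.

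CLK and CYC are bHLH-PAS proteins that form a heterodimer, bind E-box elements and activate transcription of the clock genes. The per gene is one of their direct targets. Its product enters the nucleus with TIM, the product of timeless, and represses CLK and CYC, which closes the feedback loop of the clock. Upstream of its transcription start per has a known circadian regulatory sequence with an E-box. Early night is the phase in which per transcription is high.

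Position is given by the files in dm3. The gene table used here is for Release 6, so it serves for the order of genes only. In that order per (Dmel_CG2647) lies between lncRNA:CR44470 and dyw (Dmel_CG2650). The position of each peak relative to exons, introns and the transcription start of per was not analysed here.

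The lists differ widely in length and the depth of the libraries is unknown. Tagged head lists hold 13729 and 4609 peaks for CLK and 12086 and 4848 for CYC. Tagged body lists hold 2433 and 1153 peaks for CLK and 3967 and 1276 for CYC. Head mock lists hold 12082 and 1726 peaks and body mock lists hold 73 and 175. Among the mock lists the first head list stands apart by its length. In heads each replicate 1 list, tagged or mock, is longer than its replicate 2 list. Each peak carries 2 scores from the authors, called the first and the second score here, on a scale that the sources used here do not give. Scores and ranks are therefore read within a list only, and rank 1 is the highest score of a list.

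CLK and CYC each had peaks at the same 4 places at per in heads and in bodies. Merging tagged peaks that share 1 bp or more gave 13 sites in the window, and 4 of them had a peak in all 8 tagged lists. Of all 21784 merged sites in the genome 0.794% had a peak in all 8. The 4 sites are called A, B, C and D in the order of the chromosome. Site A spans X 2578927 to 2579251, site B spans X 2579385 to 2579717, site C spans X 2579861 to 2580183 and site D spans X 2581273 to 2581851. They hold 34 of the 48 tagged peaks. Cut into windows of 20 kb, the genome had 4389 windows with a tagged site, and 5 of these (0.114%) held 4 or more sites of this kind. The per window was among those 5. The grid was placed to hold the per window whole, with all 13 of its sites, while its edges could split other groups of sites. Other placements of the grid were not analysed here.

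**Figure D1:**
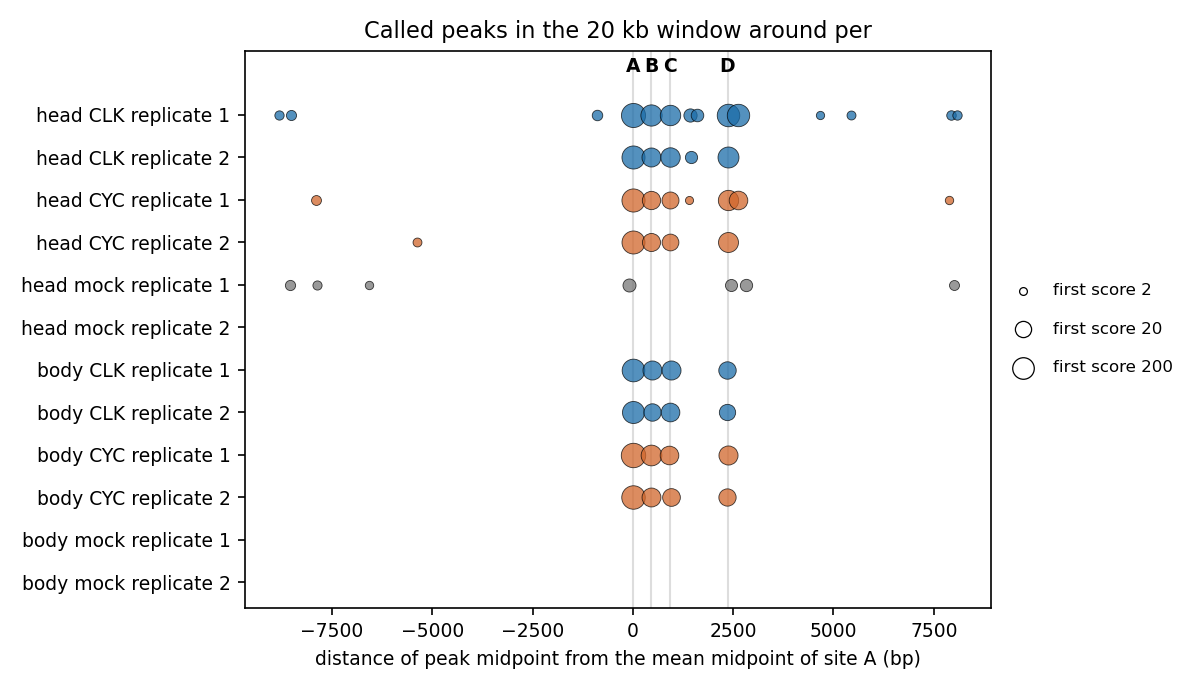
Midpoints of all peaks in the window, as the distance in bp from the mean midpoint of site A (horizontal), in each of the 12 lists (rows); blue is CLK, orange CYC and grey mock, and the area of a point grows with the log2 of the first score. Every tagged list has a large point at A, B, C and D, while the 4 mock lists hold 7 points in all, all of them in head mock replicate 1.

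Site A was the strongest of the 4 by the first score in 8 of 8 tagged lists. In heads its first score was 761.8 and 436.7 for CLK and 449.2 and 421.5 for CYC. In bodies it was 354.9 and 255.6 for CLK and 902.4 and 541.1 for CYC. These scores placed site A near the top of every tagged list, at rank 7 and 5 with CLK and 6 and 5 with CYC in heads, and at rank 6 and 6 with CLK and 5 and 6 with CYC in bodies. They were 39.8% to 68.9% of the highest first score of the same list. By mean rank over the 8 lists site A was the sixth of the 173 sites with a peak in all 8. Sites D, B and C took places 23, 24 and 27. The lists differ in length, and a mean of ranks weighs most the lists where a site stands lowest. These places are therefore a rough order only. By the second score, with the highest peak of a list at each site, site A was first of the 4 in 6 of 8 lists and second to site D in both replicate 1 head lists. With the leading peak by the first score in its place, site A was first in 7 of 8. Its rank by the second score ran from 3 to 87.

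Sites B and C lay close to site A and had lower scores than A in all 8 lists. At site B the first score was 174.7 and 62.6 with CLK and 46.3 and 41.4 with CYC in heads, and 63.0 and 32.2 with CLK and 133.9 and 59.3 with CYC in bodies. At site C it was 116.8 and 75.3 with CLK and 27.0 and 24.9 with CYC in heads, and 63.6 and 54.5 with CLK and 52.9 and 36.01 with CYC in bodies. Site B reached 9.82% to 22.9% of the first score of site A in the same list, and site C reached 5.86% to 21.3%. Ranks ran from 19 to 72 at site B and from 19 to 139 at site C. By the first score all 4 sites were among the 100 best peaks of each tagged list, except that site D ranked 105 in body CLK replicate 1 and site C ranked 107 and 139 in the replicate 1 lists of head CLK and head CYC. Their standing was much lower by the second score, at ranks 129 to 2399 for site B and 61 to 4509 for site C. By that score site B was among the 100 best of 0 lists, site C of 1 and site D of 7.

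**Figure D2:**
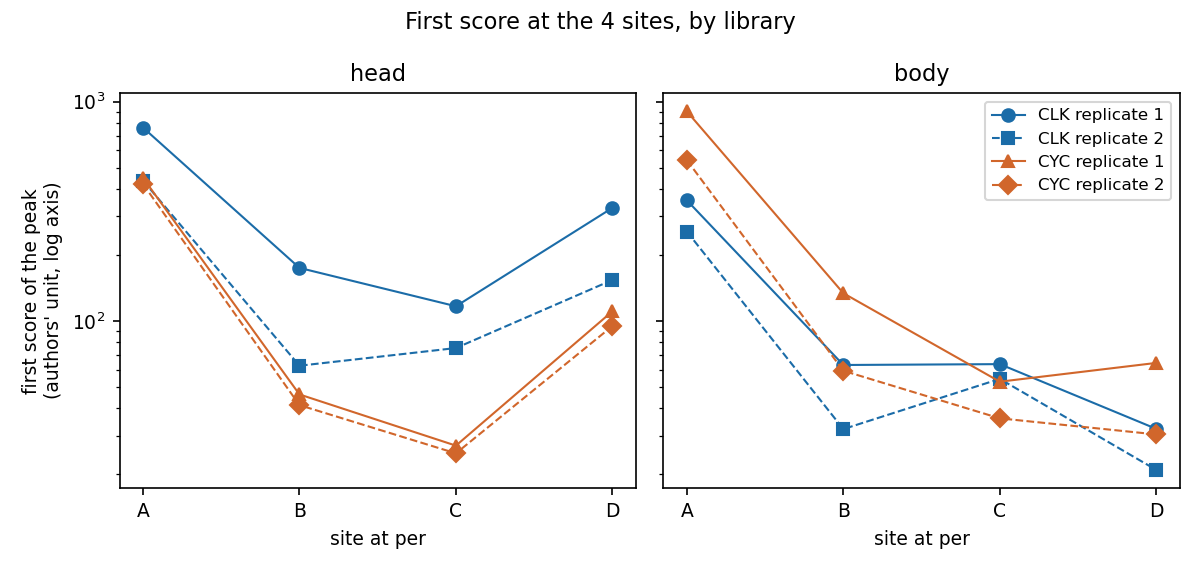
First score of the leading peak (vertical, log axis, the authors' unit) at sites A to D (horizontal) in heads on the left and bodies on the right, with a line for each tagged library. Site A is highest in all 8 libraries; from C to D the line rises in the 4 head libraries and falls in 3 of the 4 body libraries.

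By the first score site D was the second strongest of the 4 in heads and the weakest or the third in bodies. Its first score was 327.9 and 153.9 with CLK and 110.8 and 94.9 with CYC in heads, at ranks 23, 17, 16 and 14. In bodies it was 32.2 and 21.0 for CLK and 64.4 and 30.4 for CYC, at ranks 105, 81, 48 and 65. Within a list, site D had 22.5% to 43.0% of the first score of site A in heads and 5.62% to 9.08% in bodies, and these ranges do not overlap. By the second score the highest peak at site D had 50.9% to 183% of site A in heads and 12.1% to 20.4% in bodies, again without overlap. With the leading peak by the first score the head range was 50.9% to 107%. The place of site D by the first score was 2 in all 4 head lists, and it was 4 and 4 with CLK and 3 and 4 with CYC in bodies. The mean place was 2.00 in heads and 3.75 in bodies, a difference of -1.75 (two-sided exact permutation within factor, p = 0.05556, which no arrangement of the 36 can go below, n = 4 per tissue). This test was chosen after the values were seen. With the second score the places were 1, 2, 1 and 2 in heads and 3, 3, 2 and 2 in bodies, with means of 1.50 and 2.50 (exact permutation p = 0.1667). With the second score of the leading peak the means were 1.75 and 2.50 (exact permutation p = 0.3333).

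Site D lay above site B by the first score in 4 of 4 head lists and in 0 of 4 body lists. It lay above site B in all 8 lists by the second score. Among the 71 pairs of neighbours within 5000 bp that have a peak in all 8 lists, 7.04% showed this kind of full reversal between heads and bodies by the first score. The share was 1.41% by the second score. Head and body lists had score ratios without overlap, in the same direction by both scores, for 3 of the 6 pairs of sites at per. These were the pairs of D with A, B and C, which all share site D and so are not independent of each other. The 6 pairs at per are part of the 71. The share among all 71 pairs was 22.5%, and by the first score alone it was 52.1%, so a ratio that sets heads apart from bodies was common among neighbouring sites. Sonication had 6 rounds in heads and 4 in bodies, and its part in the result was not tested.

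Both replicate 1 head lists had a further peak at site D. In head CLK replicate 1 it lay 240 bp from the leading peak, with a first score of 310.4 and a second score of 376.7. In head CYC replicate 1 it lay 272 bp from the leading peak, with a first score of 52.5 and a second score of 143.4. By the second score these further peaks exceeded the leading peaks, which had 220.3 and 104.5. Neither replicate 2 head list nor any body list had a further peak there. Without the replicate 1 lists, site D still had 35.2% and 22.5% of the first score of site A in head CLK and CYC, against 8.20% and 5.62% in body CLK and CYC.

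Site C took a larger share of the score of site A with CLK than with CYC. The share of the first score was 15.3% and 17.2% with CLK in heads, and 17.9% and 21.3% with CLK in bodies. For CYC it was 6.02% and 5.92% in heads and 5.86% and 6.66% in bodies. By the second score the shares ran from 12.5% to 26.6% with CLK and from 4.37% to 10.6% with CYC. The 4 CLK lists and the 4 CYC lists thus did not overlap by either score. Such a separation by both scores was found for 1 of the 6 pairs of sites at per and for 5.63% of the 71 neighbouring pairs. With the first score alone it was found for 2 of the 6 pairs, A with C and B with C, and for 11.3% of the 71. Site B lay above site C by the first score in 4 of 4 CYC lists and in 1 of 4 CLK lists. The difference in share was not tested, because the scale of the scores is not given.

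**Figure D3:**
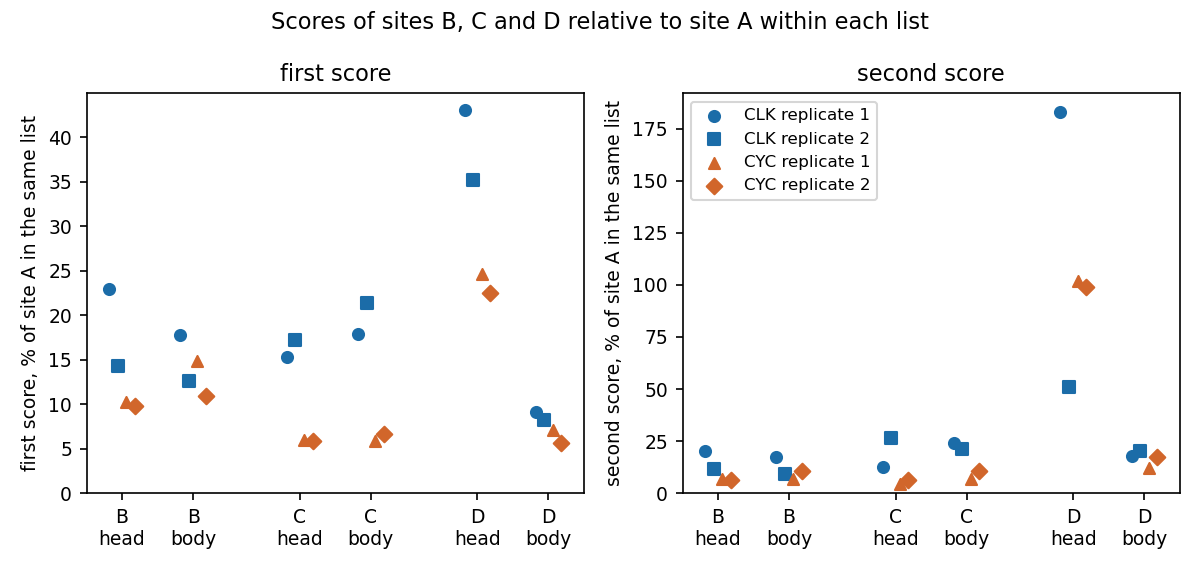
Score of sites B, C and D as a percentage of the score of site A in the same list (vertical), by the first score on the left and the second score on the right; each point is a tagged library, and heads and bodies stand side by side for each site. At site D the 4 head points lie above the 4 body points in both panels, and at site C the CLK points lie above the CYC points.

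Site A lay at nearly the same base position in every tagged list, while sites B, C and D varied more. At site A the 8 midpoints ran from 2579088 to 2579097, a range of 9 bp, with an SD of 3.16 bp. No other of the 173 sites with a peak in all 8 lists had so small a range, and their median range was 62 bp. The midpoints ranged over 34 bp at site B, 56 bp at site C and 47 bp at site D, where the leading peak by the first score was used. A range of this size or smaller was found at 13.3%, 46.2% and 34.1% of the 173 sites, respectively. Peak widths of the tagged lists ran from 228 to 322 bp, so the ranges at per, like the median range, were well below the width of a peak. Merging by overlap itself keeps the midpoints of a site close.

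The distance from site A to site B was 455.8 ± 12.0 bp (mean ± SD, n = 8) and from site B to site C it was 471.1 ± 18.1 bp. From site C to site D it was 1431.9 ± 28.2 bp. Sites A, B and C each had a neighbour within 500 bp that also had a peak in all 8 lists, which 4.05% of such sites had. In heads the distance from A to B was 445 to 466 bp and in bodies it was 442 to 471 bp.

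Heads and bodies did not differ detectably in where the peaks lay. The largest difference at per was at site D, where head midpoints lay 22.5 bp further along the chromosome than body midpoints (exact permutation p = 0.1667, adjusted p = 0.5058 over 173 sites, n = 4 and 4). At site D the CLK midpoints were 2581468 and 2581474 in heads and 2581430 and 2581427 in bodies. The CYC midpoints were 2581451 and 2581457 in heads and 2581458 and 2581445 in bodies, so the groups overlap. At sites A, B and C the difference, head minus body, was -3.0, -3.5 and -1.25 bp. Between the factors the largest difference was 14 bp at site B, CLK minus CYC (exact permutation p = 0.2222, adjusted p = 0.7172). At sites A, C and D it was 2.5, 10.8 and -3.0 bp. Neither contrast passed an adjusted p of 0.05 at any of the 4 sites, and 0.00% of the 173 sites passed it. The smallest unadjusted p of this exact test is 0.05556, so the design could not pass. Without overlap of the groups were 0 of 4 sites at per in either contrast, against 11.6% of the 173 sites for head and body and 5.78% for CLK and CYC.

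**Figure D4:**
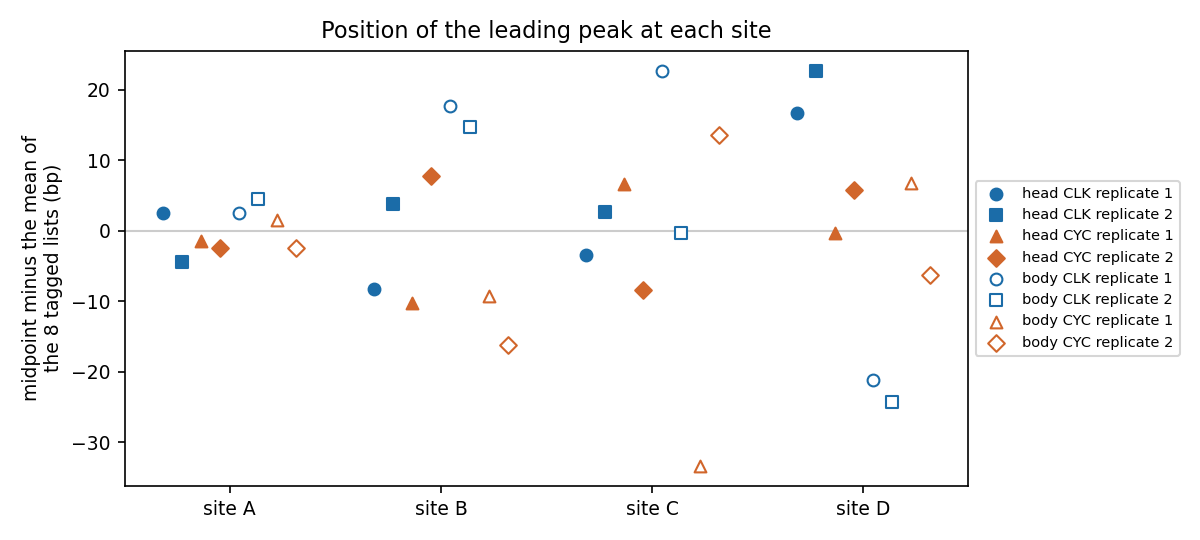
Midpoint of the leading peak at sites A to D in each tagged library, as its distance in bp from the mean of the 8 tagged lists (vertical); filled symbols are heads, open symbols bodies, blue CLK and orange CYC. The points lie within 9 bp of each other at site A and spread over 34 to 56 bp at the other sites.

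Of the 4 mock lists, head mock replicate 1 alone had peaks at per, and it had 7. In heads the window held 14 and 5 peaks with CLK and 8 and 5 with CYC, and it held 4 in each of the 4 tagged body lists. The head mock lists had 7 and 0 peaks there, and both body mock lists had 0. On the scale log2(peaks + 1) tagged lists exceeded mock lists by 1.94 (two-sided exact permutation within tissue, p = 0.01333, n = 8 and 4). All 4 tagged body lists exceeded both body mock lists, and 2 of 4 tagged head lists exceeded both head mock lists. List length bears on these numbers. Head mock replicate 1 had 0.0579% of its peaks in the window and head CYC replicate 1, a list of nearly the same length, had 0.0662%. The other tagged lists had 0.101% to 0.347%. The body mock lists are so short that few peaks could be found there. A comparison at equal length was therefore added after the values were seen, with the 1726 best peaks of each head list and the 73 best of each body list, ties kept. The window then held 5 and 4 peaks with CLK and 5 and 4 with CYC in heads, against 1 and 0 in mock. In bodies it held 3 and 3 with CLK and 4 and 4 with CYC, against 0 in both mock lists. The difference at equal length was 2.06 (exact permutation p = 0.004444, the smallest possible). With whole lists the difference was 2.69 without head mock replicate 1 and 1.19 without head mock replicate 2 (exact permutation p = 0.01333 and 0.04).

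The 7 mock peaks included 6 at tagged sites, 3 of them at site A or D. At site A the mock peak had a first score of 7.02, rank 1548 of 12082 (12.8% of the list from the top), and its midpoint lay 84 bp before the mean tagged midpoint. At site D there were mock peaks with first scores of 5.31 and 5.69, at ranks 2772 and 2415 (22.9% and 20.0% from the top), and their midpoints lay 94 and 455 bp beyond the mean tagged midpoint. The median first score of that mock list was 3.29. The mock peak outside the tagged sites had its midpoint 1203 bp from the nearest tagged midpoint. No mock list had a peak at site B or site C. A mock peak was thus present at 2 of the 4 sites, against 46.2% of the 173 sites with a peak in all 8 tagged lists. Over all 13 sites in the window it was 5, against 41.6% of all merged sites. These 5 rest on head mock replicate 1, and without that list the count is 0.

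The other 9 sites in the window had low first scores and were seen in heads only. That is 9 of the 13 sites in the window, while 75.3% of all merged sites had peaks in head lists only. The 14 tagged peaks at these 9 sites had first scores of 2.13 to 7.45. Within each tagged head list the lowest first score at sites A to D was higher, at 116.8 and 62.6 with CLK and 27.0 and 24.9 with CYC. Sites A to D are those called in all 8 lists, which itself favours high scores. The second score, 3.54 to 11.03 at these sites, separated them less well. In head CYC replicate 1 the site at X 2571058 to 2571314 had 10.87, above 9.66 at site B and 6.14 at site C. In the other tagged head lists sites A to D were higher by the second score too. Of the 13 sites in the window, 7 had a peak in 1 list each, all of them among these 9. Of all merged sites 50.4% had a peak in 1 list only. Head CLK replicate 1 gave 5 of the 7, and head CYC replicates 1 and 2 gave 1 each. The most frequent was X 2580361 to 2580823, between sites C and D, with a peak in 3 of 4 tagged head lists and no mock peak. Its first score was 7.45 and 6.12 for a pair of peaks in head CLK replicate 1, 5.57 in head CLK replicate 2 and 2.13 in head CYC replicate 1. The site at X 2586856 to 2587306 had peaks in both replicate 1 head lists and in head mock replicate 1. Without head CLK replicate 1 the window held 8 sites in place of 13.

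Tagged head lists held 5 to 14 peaks in the window and each tagged body list held 4, a difference of 0.74 on the scale log2(peaks + 1) that did not pass 0.05 (exact permutation within factor, p = 0.05556, again the lowest possible). When only the 1153 best peaks of each tagged list were kept, the difference was 0.13 (exact permutation p = 0.5), and 4 sites were left in the window. CLK minus CYC was 0.18 (exact permutation p = 1). The nearest peaks outside the window had midpoints at 2559990 and 2601494, which is 10010 and 11494 bp beyond its edges, so the edges passed through no group of peaks. The outermost peaks inside lay at 2570275 and 2587179, with first scores of 2.69 and 2.73.

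The sites most alike to site A in their ranks over the 8 tagged lists were all on chromosome arm 2L. The mean absolute difference in log2 rank was 0.45 for 2L 5301020 to 5301636, 0.58 for 2L 5305472 to 5305811 and 0.70 for 2L 5303791 to 5304128. The first of these had ranks of 6 to 7 in heads and of 7 to 10 in bodies. The second had rank 1 in head CLK replicate 1 and ranks of 5 to 6 in the other tagged lists. The third had ranks of 8 to 15. Likeness here is of rank only, since ranks near the top of each list leave little room to differ.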

How the data were processed

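The study sequenced 24 libraries, of which 12 pull-downs have a deposited peak list and 12 are inputs. Reads were mapped with Bowtie 0.12.7 to dm3, per the submitters' processing notes. Replicates were not pooled, and by its name every deposited list sets a pull-down against its matching input. The peak caller is not given in the sources used here. The deposited lists give chromosome, start, end and midpoint of each peak and 2 score columns, both 2 or above in every list, on a scale that is not given. All peaks of a list have the same width, and each midpoint lies midway between start and end. The lists hold no read counts, so depth is unknown and an absent peak is only an uncalled one. The design text calls the replicates independent biological replicates.

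Tagged peaks of the 8 lists were merged into sites where they shared 1 bp or more. The peak with the highest first score, called the leading peak, stood for a list at a site, and for values by the second score the peak with the highest second score did. Peak numbers and midpoints were compared by exact two-sided permutation tests, with labels permuted within tissue or factor, a pseudocount of 1 for peak numbers and Benjamini-Hochberg adjustment over all 173 sites for midpoints. The named sites are every site in the window, its nearest outside peaks, and the 3 sites most alike to the best site by rank. The promoter motifs and the other clock genes of the plan were not analysed here, as this needs sequence or genes in dm3. The members and lists were chosen with earlier results of these data known. The merging and the tests were tested on simulated data. Alternatives covered the score used, the overlap rule, list length, window width, replicate block and single libraries left out. Python 3.11.15, numpy 2.4.6 and matplotlib 3.10.9 were used.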

Additional observations from a re-analysis of the deposited data

Results flagged for a closer look

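The place of site D among the 4 sites at per, by the first score, was lower in number in heads than in bodies, with a difference of -1.75 (exact permutation p = 0.05556, which is the lowest value possible with 36 arrangements). It drew attention because site D lay above site B in every tagged head list and below it in every tagged body list. The test was chosen after these values were seen, so its p adds no support to the pattern. By the second score the difference in place was -1 (exact permutation p = 0.1667). Among the 71 pairs of neighbouring sites 7.04% showed such a full reversal by the first score. The design cannot reach 0.05 here, and by the second score site D lay above site B in all 8 lists.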

How the results depend on the processing

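Sites with a peak in every tagged list stayed at 4 under both other overlap rules. Cuts, list length and left-out libraries could not alter this. The 4 had first scores of 20.96 or more and ranks to 139, and no other site was in over 3 lists. The total of 13 sites rose to 16 with midpoints within 100 bp merged and to 15 with an overlap of 50% or more of a peak's width. It was 5 with peaks at or above the median first score of 3.92 and 4 at equal list length. In the replicate 2 lists alone it was 6, and with single libraries left out 8 to 13. Sites with a mock peak fell from 5 to 0 without head mock replicate 1. Ranked by the second score, body lists with site D above site B went from 0 to 4. Each body list had 1 peak at site B and 1 at site D, so the choice of peak could not alter this.

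The excess of tagged over mock peaks, 1.94 on the log2 scale, ran from 1.19 to 2.69 with single libraries left out, with exact permutation p from 0.01333 to 0.04. It was 2.06 at equal list length within each tissue (exact permutation p = 0.004444), 1.56 in heads alone (p = 0.2), 2.32 in bodies alone (p = 0.06667), 1.43 in replicate 1 lists alone and 2.45 in replicate 2 lists alone (p = 0.1111 for both, by exact permutation). Apart from the heads, these are the smallest p that so few lists allow. These subsets and the subsets by replicate were chosen after seeing the data. Head minus body ran from 0.41 to 1.07 and CLK minus CYC from -0.15 to 0.51, negative only without head CLK replicate 1. The place of site D ran from -2.00 to -1.5.

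Midpoint differences, head minus body, ran from -4.75 to -1.25 bp at site A, -8.0 to 1.0 at B, -13.0 to 10.5 at C and 19.3 to 25.8 at D. For CLK minus CYC they ran from 0.75 to 4.25 at A, 9.5 to 18.5 at B, -1.0 to 22.5 at C and -6.25 to 0.25 at D. No site of the 173 passed in any of these fits, and none could, since their smallest unadjusted p is 0.05556.

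With the replicate number as a block the tagged excess kept its value of 1.94 (exact permutation p = 0.01235), head minus body its 0.74 (p = 0.125) and CLK minus CYC its 0.18 (p = 1), and the midpoint calls stayed at 0. These calls could not leave 0, since the smallest unadjusted exact permutation p with the block is 0.125. The place of site D kept its -1.75 (exact permutation p = 0.125, the smallest the block allows). The labels give shared numbers but no shared source. Replicate differences in log2 rank over the 173 sites correlated at 0.51 between head CLK and head CYC. Between the other groups the correlation ran from -0.18 to 0.18. The numbers were not taken as pairs in the main tests. Whether the head replicates shared a source was not tested. The cause of these changes was not tested.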
